A study of Mus musculus with 18 samples.

Results

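The genes described here are 10 genes that mark lipid-associated macrophages: *Trem2*, *Tyrobp*, *Gpnmb*, *Spp1*, *Itgax*, *Cd9*, *Cd63*, *Cd68*, *Lgals3* and *Cd44*. They were taken by symbol as known markers of these cells, with earlier results of these data known, and all 10 of 10 have a row among the 52093 symbols of the expression tables. Where a symbol had several rows, the row with the highest mean RPKM (the read count scaled to the length of the transcript and the size of the library) over the 18 samples was used. Lipid-associated macrophages are macrophages that collect in obese fat, around dying adipocytes, where they take up and digest released lipid. TREM2, a lipid receptor of the macrophage surface, signals through the adaptor DAP12 (encoded by *Tyrobp*), and the cells are rich in lysosomal membrane proteins, tetraspanins and lectins. In mice, epididymal fat is known as the depot in which such macrophages gather most readily during high-fat feeding.

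The samples were RNA-seq libraries of male, wild-type mice (C57BL/6 in the strain field, C57BL/6J in the protocol and C57BL/6NTac in the study's notes) kept on high-fat feeding (HFD) during 12 weeks and aged 16 weeks by the study's notes. There were 6 libraries of adipocytes isolated from inguinal white adipose tissue (iWAT), 6 of adipocytes isolated from epididymal white adipose tissue (eWAT) and 6 of brown adipose tissue (BAT). No sample carried a transgene or received an agent, and 1 label field, which gives regular chow as the treatment of every sample, conflicts with the titles and the design, which give the HFD. White adipocytes were prepared by collagenase digestion and flotation, whereas BAT was taken as frozen whole tissue (its source label gives tissue, its cell type label BAT adipocytes), so preparation and tissue cannot be told apart in any comparison with BAT. The number in the sample titles was taken as the mouse; both white depots came from mice 1, 2, 3, 4, 5 and 16, and BAT came from mice 1, 2, 5, 16, 17 and 18.

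Reads on the rows numbered between 24655056 and 42518483 per sample. The labelled tissues were checked against marker genes. *Ucp1*, the uncoupling protein of brown adipocytes, averaged 1858 RPKM in BAT, 2.26 in iWAT adipocytes and 0.261 in eWAT adipocytes, and the summed RPKM of 4 adipocyte genes (*Adipoq*, *Plin1*, *Lep* and *Cidec*) was between 629.3 and 823.5 in BAT, between 2605 and 3840 in iWAT adipocytes and between 516.5 and 1812 in eWAT adipocytes. The white samples also held RNA of macrophages. The summed RPKM of 6 macrophage markers (*Adgre1*, *Csf1r*, *Fcgr1*, *Mertk*, *Cd14* and *Lyz2*) was between 22.9 and 45.2 in BAT, between 346.9 and 695.9 in iWAT adipocytes and between 2019 and 3387 in eWAT adipocytes. In eWAT adipocytes, mice 1 and 3 stood apart, with the highest macrophage sums (3387 and 3320) and the lowest adipocyte sums (703.2 and 516.5).

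Promoters of 5 members are shown because their mRNAs differed most between eWAT adipocytes and iWAT adipocytes (*Spp1*, *Gpnmb*, *Itgax* and *Trem2*) or hold the most motif matches (*Cd68*). Each is the RefSeq window of 300 bases in the GRCm38.p6 build, 250 bases before and 50 bases after the start site, 5′ to 3′ on the strand of the gene. The same letters were found in mm9 (NCBIM37), the build of the expression tables, where the start site of *Trem2*, *Gpnmb* and *Spp1* is the first base of the row used here. Capitals mark letters of 3 motifs that were searched on both strands: GAGGAA, a core bound by PU.1, the master factor of macrophages; TGANTCA, bound by AP-1; and CACGTG, the E-box of the MiT factors that control lysosomal genes.
Trem2, chr17:48346151-48346450, plus strand: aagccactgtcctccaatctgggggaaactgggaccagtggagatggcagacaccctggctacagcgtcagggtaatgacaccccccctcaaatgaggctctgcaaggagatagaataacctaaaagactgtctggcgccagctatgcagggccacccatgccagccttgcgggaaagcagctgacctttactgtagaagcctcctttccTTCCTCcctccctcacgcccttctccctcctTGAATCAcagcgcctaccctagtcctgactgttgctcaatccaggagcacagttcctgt
Gpnmb, chr6:49036268-49036567, plus strand: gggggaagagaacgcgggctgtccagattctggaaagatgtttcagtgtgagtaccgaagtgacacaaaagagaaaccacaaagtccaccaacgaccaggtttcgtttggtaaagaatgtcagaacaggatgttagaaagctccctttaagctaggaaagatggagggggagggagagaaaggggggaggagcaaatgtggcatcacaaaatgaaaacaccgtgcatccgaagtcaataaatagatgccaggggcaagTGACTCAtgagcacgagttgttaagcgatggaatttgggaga
Spp1, chr5:104434861-104435160, plus strand: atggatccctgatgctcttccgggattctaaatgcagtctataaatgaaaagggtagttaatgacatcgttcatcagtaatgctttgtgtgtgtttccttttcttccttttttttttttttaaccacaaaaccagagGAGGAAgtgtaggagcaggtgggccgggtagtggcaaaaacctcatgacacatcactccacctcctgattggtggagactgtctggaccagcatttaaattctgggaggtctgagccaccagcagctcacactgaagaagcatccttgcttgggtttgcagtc
Itgax, chr7:128129300-128129599, plus strand: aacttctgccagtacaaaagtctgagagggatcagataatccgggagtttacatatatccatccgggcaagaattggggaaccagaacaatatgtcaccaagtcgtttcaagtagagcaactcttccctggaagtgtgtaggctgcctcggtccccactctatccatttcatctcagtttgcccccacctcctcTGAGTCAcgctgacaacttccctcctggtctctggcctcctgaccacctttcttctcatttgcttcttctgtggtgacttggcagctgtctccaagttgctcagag
Cd68, chr11:69666121-69666420, minus strand: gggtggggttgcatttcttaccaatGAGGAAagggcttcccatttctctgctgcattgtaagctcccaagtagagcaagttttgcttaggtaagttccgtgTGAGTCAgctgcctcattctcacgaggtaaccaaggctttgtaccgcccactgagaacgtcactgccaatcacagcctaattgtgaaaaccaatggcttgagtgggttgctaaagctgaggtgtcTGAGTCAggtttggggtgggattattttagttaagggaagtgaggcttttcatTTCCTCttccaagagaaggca

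Of the 10 members, 9 have a promoter entry. TGANTCA was found in 4 of the 9 (*Trem2*, *Gpnmb*, *Itgax* and *Cd68*), against 7.81% of all 32851 promoters of the same length. It begins at base -9 in *Trem2*, 9 in *Gpnmb* and -56 in *Itgax*, counted from the start site, and at bases -149 and -24 in *Cd68*. GAGGAA was found in 5 of the 9 (*Trem2*, *Spp1*, *Cd63*, *Cd68* and *Cd44*), against 28.3% of all promoters, and in *Trem2* it lies on the other strand, where it reads as TTCCTC from base -40. CACGTG was found in none of the 9, against 7.15% of all promoters. No match overlapped another. These matches describe letters only.

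*Trem2* (chr17:48485726-48493472, mm9) encodes the lipid receptor itself. Its lowest, median and highest level over 6 mice was 8.56, 13.7 and 16.02 RPKM in iWAT adipocytes, 48.9, 58.5 and 82.1 RPKM in eWAT adipocytes and 0.0981, 0.195 and 0.304 RPKM in BAT. The 3 tissues did not overlap, and the BAT values rested on 16 to 58 reads. *Trem2* was 4.90-fold higher in eWAT adipocytes than in iWAT adipocytes (log2 fold change 2.29 ± 0.17 SE, edgeR quasi-likelihood test, Benjamini-Hochberg adjusted p = 4e-07), and it exceeded BAT by 41.0-fold in iWAT adipocytes (adjusted p = 9.8e-12) and by 205.1-fold in eWAT adipocytes (adjusted p = 4.1e-13). In bulk samples, fewer cells of a type and less RNA per cell cannot be told apart.

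*Tyrobp* (chr7:31198807-31202601), which encodes the adaptor DAP12, followed the same order of tissues. Its lowest, median and highest level was 54.6, 79.9 and 105.2 RPKM in iWAT adipocytes, 280.7, 321.8 and 441.9 RPKM in eWAT adipocytes and 1.99, 3.45 and 5.36 RPKM in BAT. Every eWAT sample lay above every iWAT sample, and every iWAT sample above every BAT sample. The log2 fold change was 2.12 ± 0.16 SE for eWAT over iWAT adipocytes (adjusted p = 4e-07), 3.86 ± 0.20 for iWAT adipocytes over BAT (adjusted p = 7.8e-11) and 6.01 ± 0.20 for eWAT adipocytes over BAT (adjusted p = 6e-13).

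Among the lysosomal glycoproteins, *Gpnmb* (chr6:48986517-49020928) showed the largest span of any member. It was at 46.9, 68.0 and 89.6 RPKM (lowest, median and highest) in iWAT adipocytes, at 407.1, 517.6 and 765.9 RPKM in eWAT adipocytes and at 0.365, 0.680 and 0.917 RPKM in BAT. In eWAT adipocytes, mice 1 and 3 (762.5 and 765.9 RPKM) lay well above the other 4 mice, which reached 536.6 RPKM at most. *Gpnmb* was 8.38-fold higher in eWAT than in iWAT adipocytes (log2 fold change 3.07 ± 0.21 SE, adjusted p = 2.3e-07) and 563.5-fold higher in eWAT adipocytes than in BAT (9.14 ± 0.32, adjusted p = 1.2e-12), and 65.9-fold higher in iWAT adipocytes than in BAT (6.04 ± 0.26, adjusted p = 1.2e-11). On its own it took 0.413% ± 0.117 (SD, n = 6) of all reads in eWAT adipocytes, compared with 0.0467% ± 0.0125 in iWAT adipocytes.

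*Cd68* (chr11:69477715-69479655) encodes macrosialin, the lysosomal glycoprotein most used to stain macrophages. It was at 100.9, 137.7 and 185.0 RPKM in iWAT adipocytes, 456.7, 543.6 and 681.0 RPKM in eWAT adipocytes and 2.04, 3.31 and 4.01 RPKM in BAT (lowest, median and highest). The tissues again did not overlap. The log2 fold change of eWAT over iWAT adipocytes was 2.01 ± 0.16 SE (adjusted p = 4.1e-07), and against BAT it was 4.88 ± 0.19 for iWAT adipocytes (adjusted p = 5e-12) and 6.93 ± 0.19 for eWAT adipocytes (adjusted p = 1.6e-13).

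Of the secreted proteins, *Spp1* (chr5:104864130-104870072), which encodes osteopontin, a phosphoprotein that attracts macrophages, differed most between the white depots. Its lowest, median and highest level was 5.35, 6.61 and 10.5 RPKM in iWAT adipocytes, 59.5, 101.1 and 122.9 RPKM in eWAT adipocytes and 0.0583, 0.124 and 0.236 RPKM in BAT. It was the lowest of the members in iWAT adipocytes and in BAT, where it had 5 to 15 reads a sample, but ranked 6th of 10 in eWAT adipocytes. The difference between eWAT and iWAT adipocytes was 12.8-fold (log2 fold change 3.67 ± 0.22 SE, 95% interval 9.49 to 17.2-fold, adjusted p = 1.7e-07), the 39th largest of 19623 genes tested. Against BAT, *Spp1* was higher by 5.20 ± 0.24 on the log2 scale in iWAT adipocytes (adjusted p = 3.6e-11) and by 8.90 ± 0.29 in eWAT adipocytes (adjusted p = 5e-13).

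*Lgals3* (chr14:47987426-48005842) encodes galectin-3, a lectin that binds β-galactosides inside and outside the cell. It was the most abundant member per length in both white depots, at 200.2, 266.4 and 356.2 RPKM in iWAT adipocytes and 755.8, 871.8 and 1132 RPKM in eWAT adipocytes. In BAT it lay between 3.01 and 4.78 RPKM (median 3.46). *Lgals3* separated iWAT adipocytes from BAT more than any other member except *Gpnmb* (log2 fold change 5.57 ± 0.17 SE, adjusted p = 7.7e-13), yet had the second smallest difference between the white depots (1.77 ± 0.15, adjusted p = 5.9e-07). No range overlapped that of another tissue.

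*Itgax* (chr7:135273061-135294171) encodes integrin αX, or CD11c, which pairs with integrin β2. Its lowest, median and highest level was 14.8, 15.8 and 19.2 RPKM in iWAT adipocytes, 55.6, 91.1 and 117.0 RPKM in eWAT adipocytes and 0.258, 0.322 and 0.490 RPKM in BAT. The iWAT samples lay close together, with a coefficient of variation of 9.77%, the lowest of any member in any tissue, against 25.0% in eWAT adipocytes. The log2 fold change was 2.46 ± 0.15 SE for eWAT over iWAT adipocytes (adjusted p = 1.7e-07), 4.90 ± 0.12 for iWAT adipocytes over BAT (adjusted p = 8.9e-14) and 7.39 ± 0.22 for eWAT adipocytes over BAT (adjusted p = 2.8e-13).

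*Cd44* (chr2:102651298-102741822), the receptor for hyaluronan, a polysaccharide of the extracellular matrix, was at 13.1, 18.8 and 31.9 RPKM in iWAT adipocytes, 74.9, 80.3 and 99.9 RPKM in eWAT adipocytes and 0.556, 0.743 and 0.873 RPKM in BAT (lowest, median and highest). It varied least of the members in eWAT adipocytes (coefficient of variation 11.7%) and most in iWAT adipocytes (33.7%), with mouse 3 highest in the latter. *Cd44* was 4.04-fold higher in eWAT than in iWAT adipocytes (log2 fold change 2.01 ± 0.19 SE, adjusted p = 1.4e-06), and against BAT it differed by 4.27 ± 0.20 in iWAT adipocytes (adjusted p = 3.7e-11) and 6.31 ± 0.13 in eWAT adipocytes (adjusted p = 1.6e-14).

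The tetraspanins *Cd9* (chr6:125410284-125444809) and *Cd63* (chr10:128345975-128349878) organise membrane domains of the cell surface and of late endosomes, respectively, and are made by many cell types. *Cd9* was at 10.3, 13.5 and 17.2 RPKM in iWAT adipocytes, 40.1, 55.6 and 77.7 RPKM in eWAT adipocytes and 1.07, 1.12 and 1.55 RPKM in BAT. *Cd63* was at 36.1, 47.1 and 49.7 RPKM in iWAT adipocytes, 114.2, 125.0 and 164.0 RPKM in eWAT adipocytes and 3.17, 3.92 and 4.84 RPKM in BAT. Both showed no overlap between tissues but had the smallest differences from BAT of all members. The log2 fold change of iWAT adipocytes over BAT was 2.88 ± 0.11 SE for *Cd9* (adjusted p = 4.4e-12) and 2.86 ± 0.10 for *Cd63* (adjusted p = 1.4e-12), and for eWAT over iWAT adipocytes it was 2.12 ± 0.16 (adjusted p = 3.2e-07) and 1.56 ± 0.11 (adjusted p = 2.1e-07). Counts of both are uncertain, since the *Cd63* row overlaps a row of LOC100505035 on the same strand and the *Cd9* row overlaps AK051196 on its own strand and a second *Cd9* row on the opposite strand. LOC100505035 gave nearly the same value for eWAT over iWAT adipocytes (log2 fold change 1.57 ± 0.11 SE, adjusted p = 2.1e-07).

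**Figure D1:**
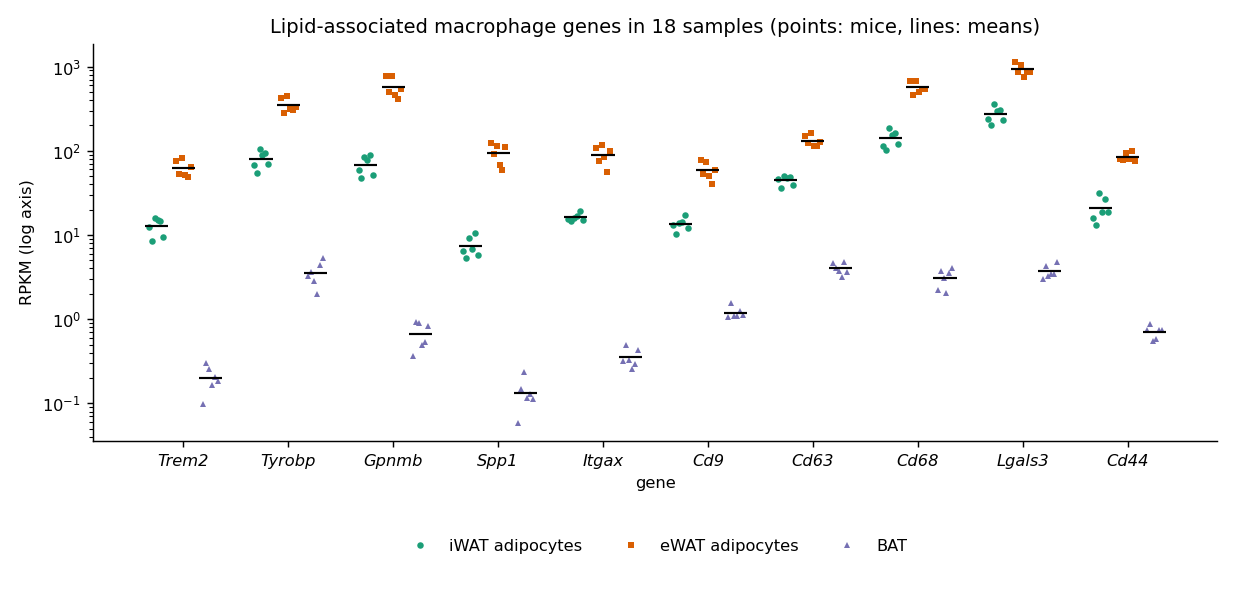
RPKM (log axis) of the 10 genes in every sample, with circles for iWAT adipocytes, squares for eWAT adipocytes, triangles for BAT and black lines for the means of 6 mice. For each gene the eWAT samples lie highest and the BAT samples lowest, without overlap; *Lgals3* is highest in both white depots, at a mean of 270.1 RPKM in iWAT and 923.0 RPKM in eWAT adipocytes.

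The order of the members by level per length changed between tissues. In iWAT adipocytes, *Lgals3* (270.1 ± 58.2 RPKM, mean ± SD, n = 6) lay above *Cd68* (140.0 ± 32.8) without overlap, whereas *Cd68*, *Tyrobp* and *Gpnmb* each overlapped the next in order, and *Cd63*, in the fifth place, lay above *Cd44* without overlap. In eWAT adipocytes, *Gpnmb* (571.1 ± 155.7 RPKM) moved from the fourth to the second place and its range overlapped those of *Lgals3* and *Cd68*. In BAT, *Cd63* (4.03 ± 0.64 RPKM), *Lgals3*, *Tyrobp* and *Cd68* could not be separated by their spread on these row lengths, and *Cd9*, next in order, did not overlap them. The rows of some members join several transcripts and are longer than the longest protein-coding transcript in GENCODE vM1, by 4.55 times in *Trem2*, 3.77 times in *Cd9* and 3.30 times in *Cd63*. With the length of that transcript, *Trem2* would average 57.8 RPKM in iWAT adipocytes, 284.0 RPKM in eWAT adipocytes and 0.921 RPKM in BAT, and would rank 6th rather than 9th in both white depots. *Cd63* would then rank 2nd rather than 5th in iWAT adipocytes, and in BAT it would average 13.3 ± 2.12 RPKM, against 4.88 ± 0.88 RPKM for *Lgals3* and 4.53 ± 0.69 RPKM for *Cd9*, which would rank 3rd. Differences between tissues do not depend on this length.

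The first comparison asked how the genes differed between the 2 white depots. All 10 of 10 members passed the test as higher in eWAT adipocytes, from 1.56 (*Cd63*) to 3.67 (*Spp1*) on the log2 scale, with a median of 2.12, or 4.35-fold. Of 19623 genes tested, 34.5% were called higher and 34.1% lower in eWAT adipocytes, and the median of all genes was close to 0 (-0.0014). Each of the 10 also passed the stricter rule of a log2 fold change of at least 1, which 11.9% of genes met, and showed 6 eWAT samples above all 6 iWAT samples, as did 22.8% of genes. Together, the members took 0.959% ± 0.204 (SD) of the reads in eWAT adipocytes, 0.177% ± 0.040 in iWAT adipocytes and 0.00387% ± 0.00061 in BAT. White samples were run on lanes 1 and 2, and all 10 members were higher within lane 1 (1.41 to 3.38 on the log2 scale) and within lane 2 (1.66 to 4.01). Lane 1 held iWAT adipocytes of mice 1 and 3 and eWAT adipocytes of mice 2, 3, 4 and 5. The other white samples were on lane 2. Fits within a lane thus rested on fewer samples. Of all genes, 7301 were called within lane 1 and 9923 within lane 2, against 13454 with both lanes. Without mice 1 and 3 in eWAT adipocytes, all 10 members remained called, with a median of 1.98.

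General macrophage markers also differed between the depots. All 6 of the 6 were higher in eWAT adipocytes, from 0.85 for *Mertk*, a phagocytic receptor, to 2.38 for *Cd14*, a lipopolysaccharide co-receptor, with a median of 2.08 on the log2 scale. Markers of other cells did not share 1 direction. Of 3 monocyte genes, *Ccr2* was higher in eWAT adipocytes (1.28 ± 0.20 SE, adjusted p = 8e-05), *Plac8* was not called (adjusted p = 0.87) and *Ly6c2* was not tested. Of 4 genes of fibroblasts and adipose progenitors, 1 was lower and 3 were not called. The summed RPKM of the 4 adipocyte genes was lower in eWAT adipocytes (516.5 to 1812 against 2605 to 3840), with all 4 called lower, and that of 3 endothelial genes was 31.6 to 67.8 against 89.9 to 260.2. Among 3 mesothelial genes (*Msln*, *Upk3b* and *Wt1*), which mark the lining of intra-abdominal fat, all were called higher in eWAT adipocytes, though their summed level was 0.391 to 2.29 RPKM and *Msln* and *Wt1* had at most 3 reads in every iWAT sample. *Cd3e*, *Cd3g* and *Cd3d*, which define T cells, had at most 3 reads in every eWAT sample, and of 4 neutrophil genes *Ly6g* was listed at 0 in every sample of the 3 tissues, while *S100a8* averaged 6.06 RPKM in iWAT adipocytes, 5.72 RPKM in eWAT adipocytes (not called, adjusted p = 0.77) and 0.489 RPKM in BAT. The neutrophil gene *S100a9* was instead highest in BAT, at a mean of 0.410 RPKM, against 0.180 in iWAT and 0.0668 in eWAT adipocytes. It had at most 12 reads in any sample, and *Retnlg*, the fourth of these genes, had at most 4. Dendritic cells, which also express *Itgax*, were followed by 4 genes, whose summed level was 0.757 to 1.31 RPKM in eWAT and 1.66 to 3.40 RPKM in iWAT adipocytes. More than any other of them, *Zbtb46* set this sum, at 0.534 of a mean of 0.995 RPKM in eWAT and 1.46 of 2.36 RPKM in iWAT adipocytes. Of the 3 that could be tested, *Zbtb46* and *Clec9a* were lower in eWAT adipocytes and *Xcr1* was not called (0.42, adjusted p = 0.25). On the log2 scale *Zbtb46* differed by -1.46, and the 3 endothelial genes by -1.84 to -1.63. Whether the *Zbtb46* reads came from dendritic cells was not tested. The part of these cell types in the differences of the members was not tested.

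To ask whether a member differed by more or less than general macrophage markers, the counts were scaled to the geometric mean count of the 6 macrophage markers instead of the library. On this scale, 4 of 10 members were higher in eWAT than in iWAT adipocytes, 1 was lower and 5 were not called, whereas of all genes 1.03% were called higher and 93.6% lower. The 6 markers of the scale themselves split in a similar way, with 3 called higher, 1 lower and 2 not called. Their median was 0.15 on the log2 scale, against 0.18 for the members. *Spp1* remained higher by 1.75 ± 0.16 SE on the log2 scale (3.35-fold, adjusted p = 3.3e-08) and *Gpnmb* by 1.13 ± 0.15 (2.19-fold, adjusted p = 1.9e-06). *Itgax* (0.48 ± 0.16, adjusted p = 0.010) and *Trem2* (0.36 ± 0.12, adjusted p = 0.011) differed less. *Cd63* was lower by this measure (-0.39 ± 0.13, adjusted p = 0.010). The values of *Tyrobp* (0.19, 95% interval 0.972 to 1.33-fold), *Cd9* (0.17, 0.932 to 1.36-fold), *Cd44* (0.13, 0.876 to 1.36-fold), *Cd68* (0.08, 0.892 to 1.26-fold) and *Lgals3* (-0.16, 0.741 to 1.07-fold) did not pass the test.

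The error of the scale itself is not part of this test, and its choice changed calls. With *Adgre1* or the leukocyte gene *Ptprc* alone as the scale, 2 members stayed higher, *Spp1* and *Gpnmb*, and 2 were lower, *Cd63* and *Lgals3*; with markers of resident macrophages as the scale, all 10 were higher. *Itgax* and *Trem2* did not pass the test with *Adgre1* alone (adjusted p = 0.31 and 0.61) or *Ptprc* alone (adjusted p = 0.31 and 0.66), and *Trem2* did not pass it when mice 1 and 3 of eWAT adipocytes were left out (0.33, adjusted p = 0.053).

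**Figure D2:**
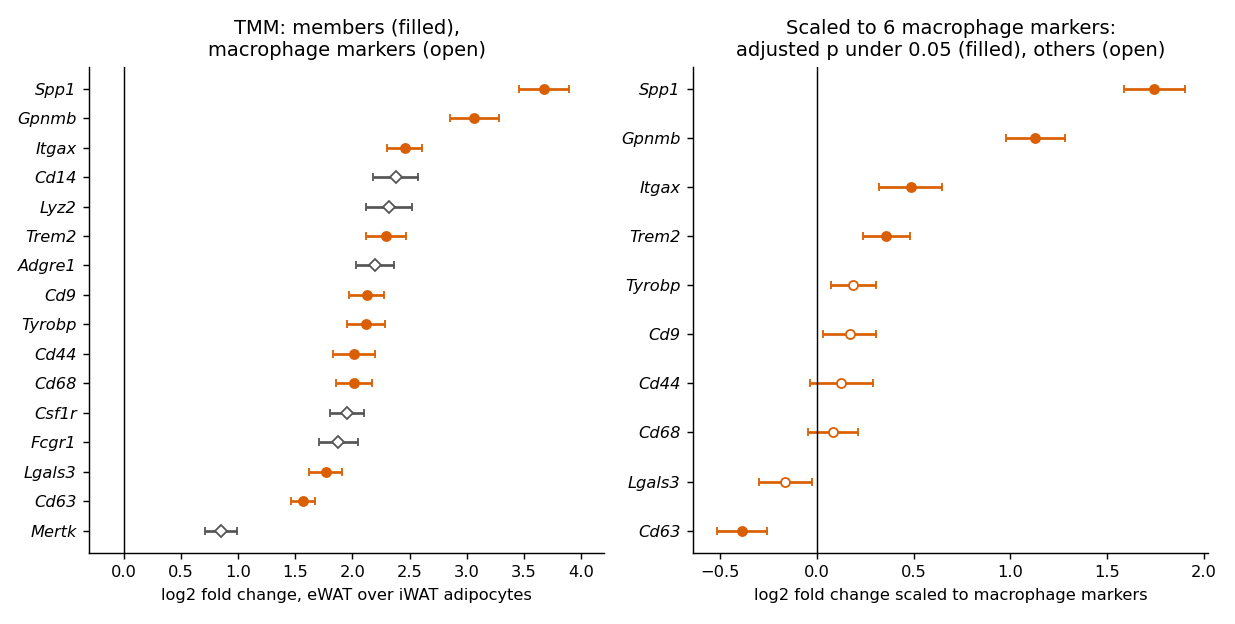
Log2 fold change of eWAT over iWAT adipocytes, with bars for 1 SE and 6 mice in each group. On the left, with TMM scaling, the members (filled) run from 1.56 (*Cd63*) to 3.67 (*Spp1*), and the macrophage markers (open) from 0.85 (*Mertk*) to 2.38 (*Cd14*); on the right, scaled to the 6 macrophage markers, *Spp1*, *Gpnmb*, *Itgax* and *Trem2* lie above 0 and *Cd63* below 0 (filled, adjusted p under 0.05), and the other 5 are open.

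The comparisons with BAT asked where brown fat stood. All 10 members passed the test as higher in iWAT adipocytes than in BAT, from 2.86 (*Cd63*) to 6.04 (*Gpnmb*) on the log2 scale with a median of 4.89, as did 38.1% of 19745 genes (18.2% by at least 2-fold). All 10 were likewise higher in eWAT adipocytes than in BAT, from 4.46 (*Cd63*) to 9.14 (*Gpnmb*) with a median of 7.15, as did 41.1% of 20076 genes (23.7% by at least 2-fold). Every member lay above BAT without overlap of the RPKM ranges in both comparisons, as did 51.8% and 49.2% of genes. These shares count genes higher than in BAT only, and rest on RPKM without TMM. Both comparisons share the BAT samples. Without TMM, the median of all genes moved from 0.01 to 0.87 in the first and from -0.02 to 0.89 in the second, and the share of calls that were higher rose from 50.6% to 81.8% and from 49.8% to 76.1%; the members remained higher there, with medians of 5.74 and 8.05. BAT was run on lanes 3 and 4 and the white samples on lanes 1 and 2, so lane and tissue cannot be told apart.

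Scaled to the macrophage markers, 8 of 10 members were higher in iWAT adipocytes than in BAT (2.76% of all genes were higher and 93.7% lower), led by *Gpnmb* (3.03 ± 0.21 SE, adjusted p = 8.1e-17) and *Lgals3* (2.54 ± 0.20, adjusted p = 2.4e-15). *Trem2* was higher by 2.36 ± 0.22 on the log2 scale (adjusted p = 2.8e-13), and *Tyrobp* by 0.88 ± 0.19 (adjusted p = 5.5e-05). *Cd9* (-0.14, adjusted p = 0.46) and *Cd63* (-0.15, adjusted p = 0.41) were not called. In eWAT adipocytes over BAT, the same 8 members were higher (1.45% of all genes were higher and 96.2% lower), with *Gpnmb* at 4.16 ± 0.22 and *Spp1* at 3.95 ± 0.25, whereas *Cd9* was not called (0.03, adjusted p = 0.84) and *Cd63* was lower (-0.54 ± 0.14, adjusted p = 0.0015). The markers of the scale differed from BAT by very unequal amounts, between 0.87 (*Mertk*) and 4.56 (*Adgre1*) on the log2 scale for iWAT adipocytes over BAT, and with *Adgre1* alone as the scale the members higher than in BAT numbered 3 for iWAT adipocytes and 5 for eWAT adipocytes, and those called lower numbered 3 and 4. *Tyrobp* was then lower than in BAT, by -0.7 in iWAT adipocytes (adjusted p = 0.014) and -0.79 in eWAT adipocytes (adjusted p = 0.0011) on the log2 scale. With *Csf1r* alone, *Cd63* was not called in eWAT adipocytes over BAT (-0.28, adjusted p = 0.078).

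**Figure D3:**
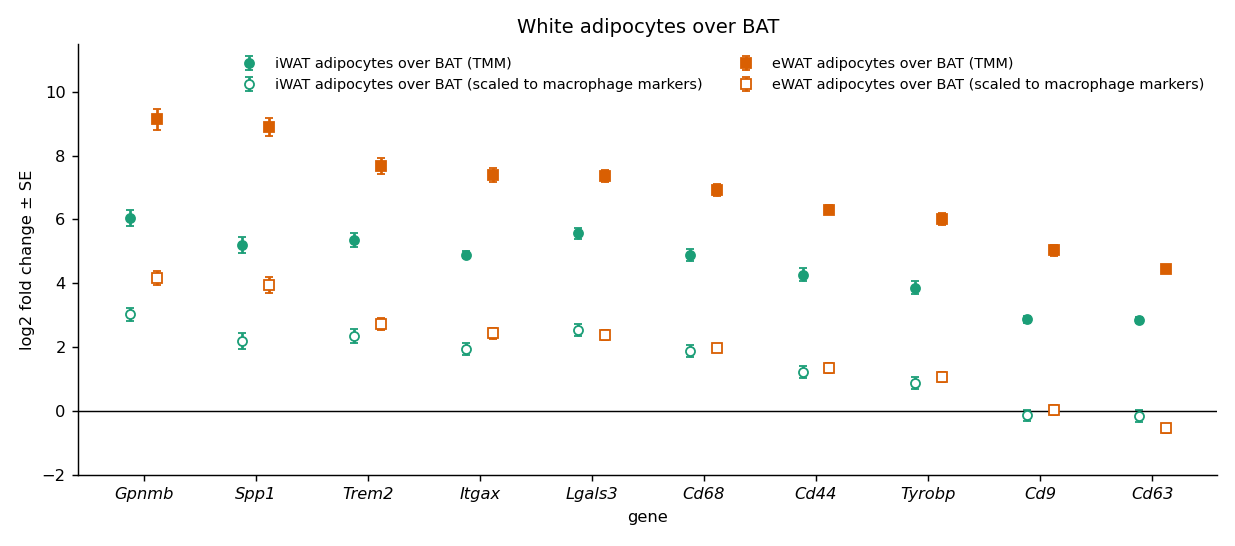
Log2 fold change over BAT with bars for 1 SE, for iWAT adipocytes (circles) and eWAT adipocytes (squares), 6 mice in each group. Filled symbols are TMM-scaled values, which reach 9.14 for *Gpnmb* in eWAT adipocytes; open symbols are scaled to the 6 macrophage markers, where *Cd9* lies near 0 and *Cd63* is at -0.15 and -0.54.

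Within a tissue, the members ranked the mice alike in part. In eWAT adipocytes, mouse 1 was highest for *Gpnmb*, *Spp1*, *Cd9*, *Cd68* and *Lgals3*, and mouse 3 for *Trem2*, *Tyrobp*, *Itgax* and *Cd63*, on TMM-scaled RPKM. These are the 2 samples with the highest macrophage and lowest adipocyte sums, and the part of cell content in their rank was not tested. Mouse 5 was lowest in eWAT adipocytes for 6 members, among them *Spp1* at 59.5 RPKM and *Itgax* at 55.6 RPKM, but highest for *Cd44* at 99.9 RPKM. In iWAT adipocytes, mouse 2 was lowest for 9 of 10 members (all but *Itgax*) and mouse 3 was highest for 7. Mouse 2 also had the lowest macrophage sum there (346.9) and mouse 3 the highest (695.9). In BAT, mouse 1 was lowest for 6 members, including *Trem2* (16 reads), *Gpnmb* (78 reads) and *Spp1* (5 reads), while its *Cd63* was above the tissue mean.

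**Figure D4:**
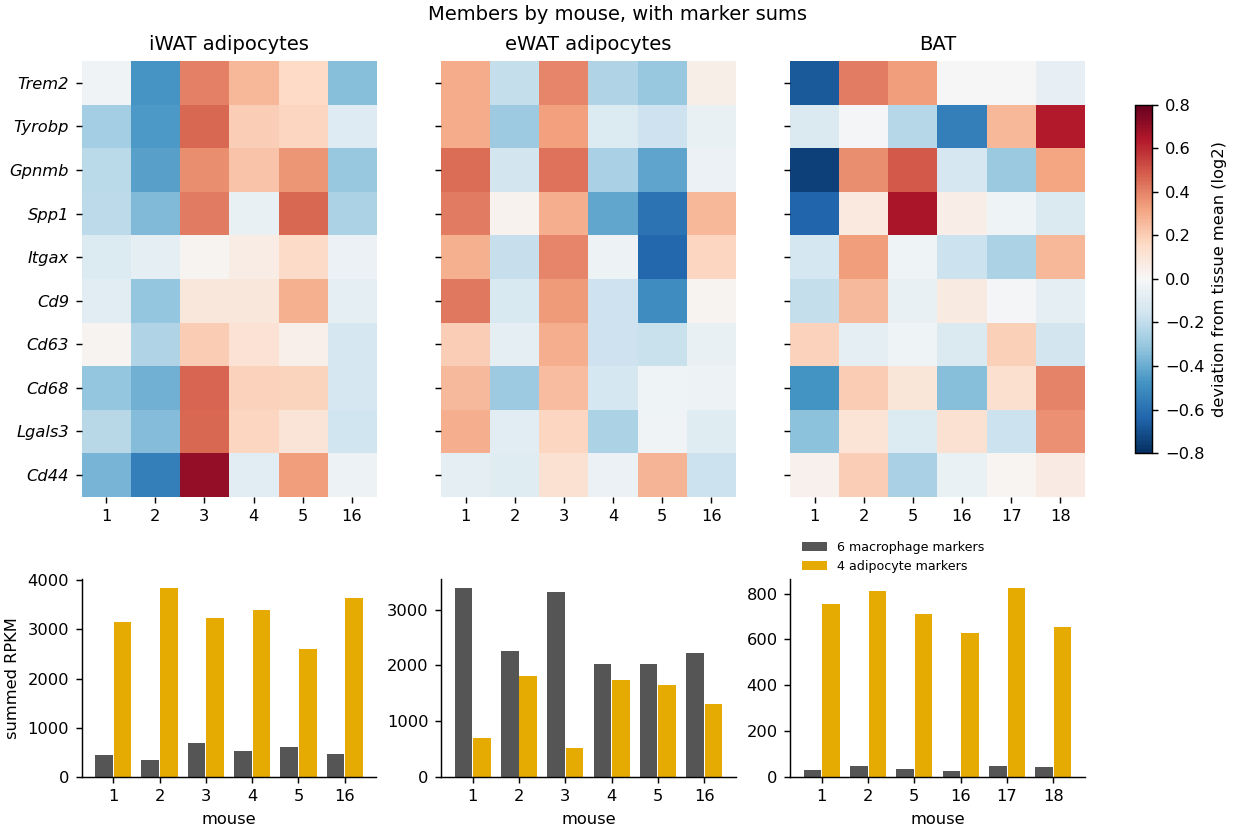
Top: deviation of each gene from its tissue mean in each mouse (log2 of TMM-scaled RPKM + 0.1; red above, blue below the mean). Bottom: summed RPKM of 6 macrophage markers (grey) and 4 adipocyte markers (yellow) in the same samples, each panel with its own axis; in eWAT adipocytes, mice 1 and 3 have macrophage sums of 3387 and 3320 RPKM and adipocyte sums of 703.2 and 516.5 RPKM.

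Of 16 other genes described in lipid-associated macrophages, 12 were higher in eWAT than in iWAT adipocytes (34.5% of all genes were), none was lower and 4 were not called, with a median of 1.38 on the log2 scale. *Mmp12*, which encodes macrophage elastase, differed most (37.3 against 418.3 RPKM, log2 fold change 3.48 ± 0.28 SE, adjusted p = 4.8e-07), and it stayed higher when scaled to the macrophage markers (1.51 ± 0.23, adjusted p = 9e-06). On that scale, however, only 3 of the 16 were higher, 9 were lower and 4 were not called, with a median of -0.59. *Ctsb*, a lysosomal protease, was the most abundant of the 16 in eWAT adipocytes (1158 against 455.6 RPKM, log2 fold change 1.34 ± 0.12, adjusted p = 1.1e-06). The 4 that were not called with TMM scaling, named after their values were seen, were *Lpl*, *Fabp5*, *Apoe* and *Lgals1*. *Lgals1* was called lower with DESeq2 (-0.24, adjusted p = 0.033) and when mouse 1 (-0.27, adjusted p = 0.05) or mouse 5 (-0.29, adjusted p = 0.016) of iWAT adipocytes was left out. The 4 ranged from -0.23 (*Lgals1*, adjusted p = 0.073) to 0.16 (*Apoe*, adjusted p = 0.28), and *Lpl*, lipoprotein lipase, was at 846.1 RPKM in iWAT and 759.6 RPKM in eWAT adipocytes. Against BAT, 15 of the 16 were higher in iWAT adipocytes (38.1% of all genes were) and all 16 in eWAT adipocytes (41.1% of all genes were). The exception, *Plin2*, which coats lipid droplets, was lower in iWAT adipocytes than in BAT (-0.40 ± 0.11, adjusted p = 0.0034).

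Of the genes of TREM2 and DAP12 signalling, all 9 with a row were higher in eWAT than in iWAT adipocytes (34.5% of all genes were), with a median of 1.85 on the log2 scale. Scaled to the macrophage markers, 1 of the 9 was higher, 3 were lower and 5 were not called, with a median of -0.09. The differences given next are TMM-scaled. *Adam10*, a protease that sheds TREM2 from the surface, differed least (0.63 ± 0.09 SE, adjusted p = 6.4e-05), with 15.5 RPKM in iWAT and 24.0 RPKM in eWAT adipocytes. The kinase gene *Syk* was not analysed here. Of 8 other receptors of the TREM family or coupled to DAP12, 5 had enough reads to be tested and 4 were higher in eWAT adipocytes. *Treml1* differed most (0.146 against 0.630 RPKM, adjusted p = 0.0011), although it did not pass within lane 1 (adjusted p = 0.11). Its values rested on few reads, 3 to 8 in an iWAT sample and 9 to 62 in an eWAT sample. *Sirpb1a* was the most abundant of them, at 2.57 RPKM in iWAT and 8.96 RPKM in eWAT adipocytes (log2 fold change 1.80 ± 0.17, adjusted p = 1.5e-06), whereas *Trem1*, a receptor of neutrophils and inflammatory monocytes, stayed at 0.140 and 0.115 RPKM and was not called (adjusted p = 0.45). *Mitf*, the MiT factor analysed here, was at 3.96 RPKM in iWAT adipocytes, 13.7 RPKM in eWAT adipocytes and 0.774 RPKM in BAT, and was higher in eWAT than in iWAT adipocytes (1.78 ± 0.13, adjusted p = 3.3e-07).

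Partners and relatives of the members did not all share their direction. For the counts that follow, 34.5% of all genes were called higher and 34.1% lower in eWAT than in iWAT adipocytes. The integrin list held β2, which pairs with CD11c, other α subunits that pair with β2, and subunits of osteopontin receptors. Of these 10 subunits, 7 were higher in eWAT than in iWAT adipocytes, 1 was lower and 2 were not called. *Itgb2*, the partner of CD11c, was at 51.8 RPKM in iWAT and 273.2 RPKM in eWAT adipocytes (log2 fold change 2.39 ± 0.21 SE, adjusted p = 8.8e-07), and *Itgam*, CD11b, differed by 2.45 ± 0.19 (adjusted p = 4.5e-07). The exception was *Itgad*, integrin αD, at 21.0 RPKM in iWAT and 6.82 RPKM in eWAT adipocytes (-1.63 ± 0.31, adjusted p = 0.00038), which within lane 1 did not pass the test (adjusted p = 0.055); in BAT it averaged 0.0748 RPKM. Of 6 other tetraspanins tested, 3 were higher and 2 lower in eWAT adipocytes; *Cd53*, of leukocytes, was higher by 2.16 ± 0.16 (adjusted p = 4e-07) and *Cd81* was lower (-0.98 ± 0.14, adjusted p = 3.7e-05). Of 5 genes tested of other galectins and the galectin-binding protein *Lgals3bp*, 4 were lower and 1 was higher. *Lgals1* was counted with the other genes of lipid-associated macrophages above. *Lgals12*, galectin-12 of adipocytes, was lower in eWAT adipocytes (-1.72 ± 0.30, adjusted p = 0.00024), and *Lgals3bp*, which encodes a binding protein of galectin-3, was lower by a smaller amount (-0.53 ± 0.15, adjusted p = 0.0071) that did not pass within lane 1 (adjusted p = 0.22). Among 5 enzymes that make or cut hyaluronan, the ligand of CD44, 4 were higher in eWAT adipocytes, with *Has1* at 0.669 RPKM in iWAT and 2.29 RPKM in eWAT adipocytes (1.77 ± 0.23, adjusted p = 1.9e-05). The smallest of the 4, *Has3* (0.20 ± 0.07, adjusted p = 0.022), did not pass with the mouse as a replicate block (adjusted p = 0.058), and *Hyal2* (0.49 ± 0.09, adjusted p = 0.00038) did not pass within lane 1 (0.41, adjusted p = 0.071).

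**Figure D5:**
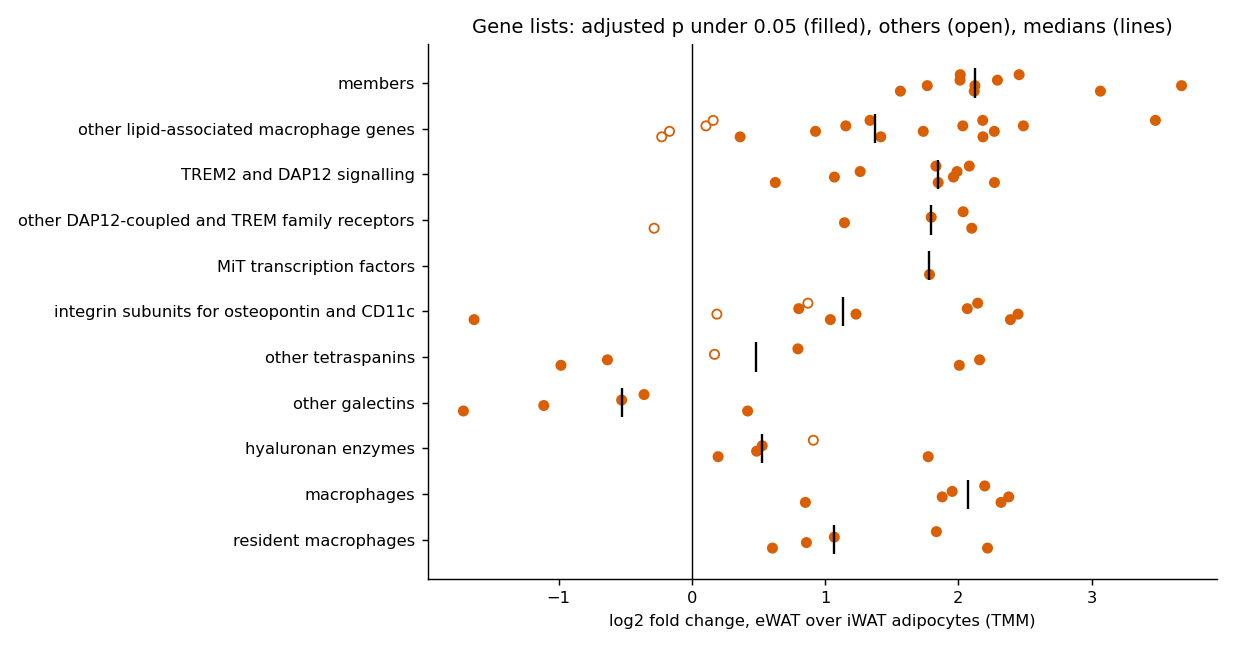
Log2 fold change of eWAT over iWAT adipocytes for each gene of 11 lists, with filled circles for adjusted p under 0.05, open circles for others and black lines for list medians. The members have a median of 2.12 and the macrophage markers 2.08, and the list of other galectins, which includes *Lgals3bp*, is mostly below 0.

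Markers of resident macrophages were unequal. Of 6 such genes, 5 could be tested and all 5 were higher in eWAT than in iWAT adipocytes (34.5% of all genes were), with a median of 1.07 on the log2 scale. Scaled to the macrophage markers, none of the 5 was higher, 3 were lower and 2 were not called, with a median of -0.85. The differences given next are TMM-scaled. *Folr2*, folate receptor β, differed by 2.22 ± 0.18 SE (adjusted p = 4.6e-07) and reached 87.1 RPKM in eWAT adipocytes, whereas *Cd163*, the haemoglobin scavenger receptor, differed by 0.60 ± 0.19 (adjusted p = 0.014) with 1.44 RPKM in iWAT and 2.201 RPKM in eWAT adipocytes.

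The genes whose pattern was most like that of *Trem2* were ranked among 14156 genes with a mean of at least 1 RPKM, by Pearson's r of log2(TMM-scaled RPKM + 0.1) over the 18 samples. Since these samples fall into 3 tissues, r is a description of points that share a tissue. *Gpnmb* ranked first (r = 0.9988), before *Lat2*, *Cd300a*, AK150131, *Myo1f*, *Itgb2*, *Capg*, *Ctss*, *Arl11* and *Adam8* (r = 0.9979 for the tenth). *Cd68* ranked 14th and *Itgax* 46th, and the other members ranked between 102nd (*Lgals3*) and 321st (*Spp1*). After each tissue mean was subtracted, so that only mouse to mouse deviations were compared, *Cd300a* ranked first (r = 0.938), followed by AK151849, *Msr1*, *Gpnmb* (r = 0.916), AK139607, *Lilrb3*, *Myo1f*, LOC635918, *Lat2* and *Gcnt1*. *Spp1* then ranked 43rd (r = 0.836), *Tyrobp* 1709th (r = 0.473) and *Cd44* 2832nd (r = 0.348). The deviations of *Trem2* in BAT rest on 16 to 58 reads, so counting error is part of them.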

How the data were processed

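The authors mapped the reads to mm9. The submitters' processing notes name cutadapt 1.16 and HISAT2 2.1.0; the counting program, its annotation and its use of strand are not given in the sources used here. The deposited files hold, for 53445 transcript rows, a whole-number read count and an RPKM value made by the authors; 1 row per symbol was used, and 1220 symbols had several. Each comparison was fitted to its own 12 samples with edgeR 4.0.16 in R 4.3.3 (TMM, glmQLFit and glmQLFTest, two-sided), for genes averaging a count of 10 or more. Benjamini-Hochberg adjustment covered every gene of the fit, at a threshold of 0.05, and SEs were derived from the F statistic. In scaled comparisons, the geometric mean count of 6 macrophage markers replaced the library size. No pair of replicates was as alike as sampling noise alone would make it (lowest chi-square per degree of freedom 15.7), and the edgeR step was tested on simulated data.

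The members and gene lists were chosen with earlier results of these data known. Named genes were all members and, of each other list, those with the largest and smallest log2 fold change of eWAT over iWAT adipocytes and the highest mean RPKM in eWAT adipocytes and in BAT; others are marked as named after their values were seen, apart from cell type markers and the genes most like *Trem2*. A gene that this rule would name is not reported here. Samples with 1 number in their titles were assumed to share a mouse, although their deviations from the tissue means correlated by -0.30 to 0.53 between the white depots. Alternatives were the mouse as a replicate block, DESeq2 1.42.0, no TMM, limma 3.58.1 on log2(RPKM + 0.1) and log2(RPKM + 1), no count filter, summed rows, all 18 samples in 1 fit, lane, other scales and leaving out samples. Figures were drawn with matplotlib 3.10.9.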

Additional observations from a re-analysis of the deposited data

How the results depend on the processing

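With TMM or another scaling to the library, every member kept its direction and its call in all 680 recalculated values of the 3 comparisons, under DESeq2, limma, no TMM, no count filter, summed rows, all samples in 1 fit, the replicate block, leaving out samples and, for eWAT over iWAT adipocytes alone, lane. With the mouse as a replicate block, which for BAT used only the 4 mice shared with each white depot, 10 members were called higher in each of these comparisons, and of all genes 12836, 12486 and 15147 were called for eWAT over iWAT adipocytes, iWAT adipocytes over BAT and eWAT adipocytes over BAT. The same mice without the block gave 13454, 12949 and 15456. Leaving out each sample in turn moved *Spp1* between 3.59 and 3.78 on the log2 scale for eWAT over iWAT adipocytes. On limma's log2(RPKM + 0.1) scale, the share of calls that were higher was 74.3% for iWAT adipocytes over BAT and 67.6% for eWAT adipocytes over BAT. Fits within a lane and without mice 1 and 3 of eWAT adipocytes were chosen after seeing the data.

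Scaling to macrophage markers was less stable: of the recalculated values of members, 484 kept direction and call and 27 changed sign. With the same direction, 9 gained a call and 10 lost it. These values include refits on the same scale with each of the 12 samples of a comparison left out in turn. Such refits do not test the choice of scale. For eWAT over iWAT adipocytes, resident macrophage markers as the scale gave 10 members higher and 0 lower, with *Cd63* at 0.52 and *Lgals3* at 0.74. *Adgre1* alone gave 2 higher and 2 lower with a median of -0.10 (*Tyrobp* -0.087, *Cd9* -0.11, *Cd68* -0.19, *Cd44* -0.14), and *Ptprc* alone gave 2 higher and 2 lower with a median of -0.12 (*Tyrobp* -0.11, *Cd9* -0.14, *Cd68* -0.21, *Cd44* -0.16). For iWAT adipocytes over BAT, resident markers put *Cd9* at 1.52 and *Cd63* at 1.49, *Csf1r* alone put them at 0.14 and 0.12, and *Adgre1* alone gave 3 members higher and 3 lower, with *Tyrobp* at -0.70 and *Cd44* at -0.39. For eWAT adipocytes over BAT, no member was lower (0) with resident markers, where *Cd63* was at 2.01, or with *Csf1r* alone (0), and *Adgre1* alone gave 5 higher and 4 lower, with *Tyrobp* at -0.79, *Cd9* at -1.85 and *Cd44* at -0.53. *Cd9*, near 0 in that comparison, was at -0.19 with *Ptprc* alone, -0.093 with the replicate block, -0.015 without mice 1 and 3 of eWAT adipocytes and from -0.014 to 0.138 when each sample was left out. The cause of these changes was not tested. Reads limit *Trem2* and *Spp1* in BAT, where they had at most 58 and 15 reads a sample.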
